A study of Mus musculus with 11 samples.

Results

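The 5 homeobox genes described are Rhox5, Rhox6, Rhox9, Cdx2 and Gbx2, each over all of its probes on the array. They were chosen by measured values of these arrays, their much lower RNA level in mouse fetal germ cells after E11.5 (embryonic days are written E), so every difference of theirs between stages is given as a description with no test. Each of the 5 genes had 1 probe among the 45281 probes of the array, and all 5 were among the 11598 genes that passed the detection filter. All 5 passed it through their E11.5 arrays, whatever the later arrays showed.

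RNA was measured on 11 Illumina BeadChips. Germ cells carried a green fluorescent protein (GFP) reporter driven by Pou5f1 and were purified from gonads by fluorescence-activated cell sorting. There were 3 biological replicates each at E11.5 (labelled male/female), at E13.5 (male) and at E15.5 (male). The GFP-negative cells of male E13.5 gonads, called non-germ cells here, had 2 replicates. All 4 groups came from the same cross, of (CBA/CaJ X C57BL/6J)F16+ animals with Hsd:ICR(CD-1) animals, and no group carried a mutation or drug treatment in the labels. The labels do not give the number of embryos per replicate, and only the E11.5 cells were of mixed sex, so stage and the mixture of sexes cannot be told apart in any comparison with E11.5.

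Homeobox genes encode transcription factors that bind DNA through a homeodomain. The Rhox genes form a cluster on the X chromosome that is used in testis, epididymis, ovary, germ cells and placenta. The cluster is known as a target of DNA methylation, which keeps most of its members silent in somatic cells. Rhox5 (also called Pem) is the founding member, and Rhox6 and Rhox9 (also called Psx1 and Psx2) are near relatives of each other. Cdx2 specifies trophectoderm, the outer layer of the blastocyst that makes the placenta, and later patterns the posterior body and gut. Gbx2 positions the boundary between midbrain and hindbrain, and in mouse embryonic stem cells it acts downstream of the cytokine LIF and STAT3 in self-renewal.

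The promoters of these genes are shown because the members share a course after E11.5 while Rhox10, a further gene of the same cluster, took the opposite one. The RefSeq promoter table (build GRCm38.p6, 250 bases before to 50 after the start) held 3 of the 5 members and Rhox10. It also held Rhox1 and Rhox13, which are not printed. Rhox6 and Rhox9 are named only. Capitals mark CG dinucleotides, the substrate of DNA methylation, and the octamer ATGCAAAT, which POU factors such as the product of Pou5f1 bind, on either strand.
Rhox5, chrX:37754358-37754657, plus strand: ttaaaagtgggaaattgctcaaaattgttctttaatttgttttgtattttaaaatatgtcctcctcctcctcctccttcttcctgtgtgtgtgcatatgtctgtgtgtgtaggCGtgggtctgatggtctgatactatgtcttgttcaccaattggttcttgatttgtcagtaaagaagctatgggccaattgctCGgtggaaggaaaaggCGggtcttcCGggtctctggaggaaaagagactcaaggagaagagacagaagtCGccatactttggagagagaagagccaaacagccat
Rhox10, chrX:38066225-38066524, plus strand: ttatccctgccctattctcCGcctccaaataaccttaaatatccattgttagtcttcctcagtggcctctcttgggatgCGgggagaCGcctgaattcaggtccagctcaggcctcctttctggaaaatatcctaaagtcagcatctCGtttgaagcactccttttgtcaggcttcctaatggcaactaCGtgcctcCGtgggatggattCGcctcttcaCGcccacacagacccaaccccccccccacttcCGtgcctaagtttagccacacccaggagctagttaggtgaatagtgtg
Cdx2, chr5:147307200-147307499, minus strand: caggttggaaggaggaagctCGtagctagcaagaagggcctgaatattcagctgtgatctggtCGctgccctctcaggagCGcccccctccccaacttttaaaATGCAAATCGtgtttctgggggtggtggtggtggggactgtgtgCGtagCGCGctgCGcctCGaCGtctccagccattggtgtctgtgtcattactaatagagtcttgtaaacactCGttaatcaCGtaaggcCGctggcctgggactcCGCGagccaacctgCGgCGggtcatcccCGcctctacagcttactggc
Gbx2, chr1:89931127-89931426, minus strand: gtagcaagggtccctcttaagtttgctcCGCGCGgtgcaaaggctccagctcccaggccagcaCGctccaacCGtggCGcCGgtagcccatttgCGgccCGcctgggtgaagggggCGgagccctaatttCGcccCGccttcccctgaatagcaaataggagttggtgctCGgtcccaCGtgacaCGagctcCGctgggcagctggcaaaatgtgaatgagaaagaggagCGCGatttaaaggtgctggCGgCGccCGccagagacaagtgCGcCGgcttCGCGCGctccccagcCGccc
The promoters held 5 CG dinucleotides at Rhox5, 9 at Rhox10, 18 at Cdx2 and 27 at Gbx2, against a median of 7 over 32851 promoters (quartiles 3 and 20). Of all promoters, 43.6% had as many CG as Rhox5 or fewer, 56.5% as many as Rhox10, 71.9% as many as Cdx2 and 85.8% as many as Gbx2. The unprinted promoters of Rhox13 and Rhox1 held 5 and 0 CG. The octamer occurred once, in the Cdx2 promoter, where it directly precedes a CG, and it is present in 1.74% of all promoters. The TATA motif TATAAA, searched on both strands, was in none of the 4 printed promoters and in 13.6% of all promoters. These letters describe the windows only, and no methylation or binding was measured.

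The arrays detected 14860 to 18657 probes each, and replicates correlated at r = 0.912 to 0.986 over genes within a group. All 10 germ cell markers listed, Pou5f1 and the helicase gene Ddx4 among them, were higher in E13.5 germ cells than in non-germ cells by the brightest probe of each gene. A dimmer Ddx4 probe was detected in non-germ cells, at 8.75 and 8.81, against 8.85, 9.30 and 9.40 on E13.5 germ cell arrays. The remaining Ddx4 probe was undetected in non-germ cells. E15.5 replicate 2 stood apart from the other E15.5 arrays. Of 11 measured markers of interstitial cells, 10 were detected there, with a summed intensity of 18330, against 1786 and 1898 on the other E15.5 arrays and 34890 to 36190 on the non-germ arrays. Its Sertoli cell markers summed to 10150, against 2162 and 3677 in the other E15.5 replicates, and its erythroid markers to 17510, against 1095 and 791.5. Differences at E15.5 are therefore followed by their values without this array. The Sertoli cell gene Sox9 was also high on E15.5 replicates 1 and 3, at 9.86 and 10.53. It read 5.00, 6.54 and 8.36 on E13.5 arrays and 11.23 and 12.23 in non-germ cells. Summed Sertoli cell markers were 2026, 1979 and 3139 on E13.5 arrays. Whether non-germ cells remained in E15.5 replicates 1 and 3 was not tested, so leaving out replicate 2 is a partial check. All values are log2 intensities after background correction and quantile scaling unless a deposited signal is named, and levels of different probes are not compared.

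Rhox5 stayed detectable in germ cells at all 3 stages, at a lower level at each later stage. Its log2 intensities were 12.11, 11.89 and 12.07 on E11.5 arrays, 10.63, 10.80 and 10.85 on E13.5 arrays, and 10.27, 9.90 and 10.27 on E15.5 arrays. The non-germ values were 6.30 and 5.67, and only the first of these arrays detected the probe (detection p below 0.01). No germ cell group overlapped another. The means were 12.02 ± 0.12 on E11.5 arrays, 10.76 ± 0.12 on E13.5 arrays and 10.14 ± 0.21 on E15.5 arrays (SD, n = 3 each), and 5.99 ± 0.44 in non-germ cells (SD, n = 2). On the scale of the deposited signal, which still contains background, the E13.5 mean was 45.6% and the E15.5 mean 26.3% of the E11.5 mean.

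Rhox6 and Rhox9 were on at E11.5 and below detection at E15.5. Rhox6 read 11.05, 11.08 and 11.02 on E11.5 arrays, 6.30, 6.74 and 6.98 on E13.5 arrays, and 4.87, 5.14 and 5.01 on E15.5 arrays. It read 4.76 and 4.77 in non-germ cells. No array of E15.5 or of non-germ cells detected it, and of the E13.5 arrays replicate 1 narrowly missed detection while the other 2 detected it. Rhox9 read 11.69, 11.80 and 11.74 on E11.5 arrays, 6.65, 7.81 and 8.31 on E13.5 arrays, 4.53, 4.64 and 4.75 on E15.5 arrays, and 4.57 and 4.44 in non-germ cells. The probe was detected on all 3 arrays at E13.5 and on none at E15.5 or in non-germ cells. The E13.5 replicates spread widely for Rhox9 (mean 7.59 ± 0.85, SD, n = 3), whereas the E11.5 replicates lay close together (11.74 ± 0.05, n = 3). Replicate 1 was the lowest of the E13.5 arrays for Rhox5, Rhox6, Rhox9 and Gbx2, and not for Cdx2. The probe sequences were not used here, so whether the probes of these related genes hybridize to each other's RNA was not tested.

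Cdx2 was detected in one group only, E11.5 germ cells. Its values were 9.81, 10.45 and 10.14 on E11.5 arrays, 5.70, 5.45 and 6.06 on E13.5 arrays, 5.90, 5.61 and 4.84 on E15.5 arrays, and 5.06 and 5.18 in non-germ cells. No array outside E11.5 detected it, although E13.5 replicate 3 came close to the threshold. The 3 undetected groups therefore have no order among them, and no fold change is given between them.

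Gbx2 stepped down at each stage and was detected on all 9 germ cell arrays. It read 11.78, 12.04 and 11.79 on E11.5 arrays, 9.12, 9.56 and 9.75 on E13.5 arrays, 7.19, 7.87 and 7.64 on E15.5 arrays, and 4.83 and 4.97, both undetected, in non-germ cells. No germ cell group overlapped another for Gbx2. The mean was 11.87 ± 0.15 on E11.5 arrays, 9.47 ± 0.32 on E13.5 arrays and 7.57 ± 0.35 on E15.5 arrays (SD, n = 3 each). Its mean deposited signal at E13.5 was 24.1% of the E11.5 mean, and at E15.5 it was 9.86%.

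**Figure D1:**
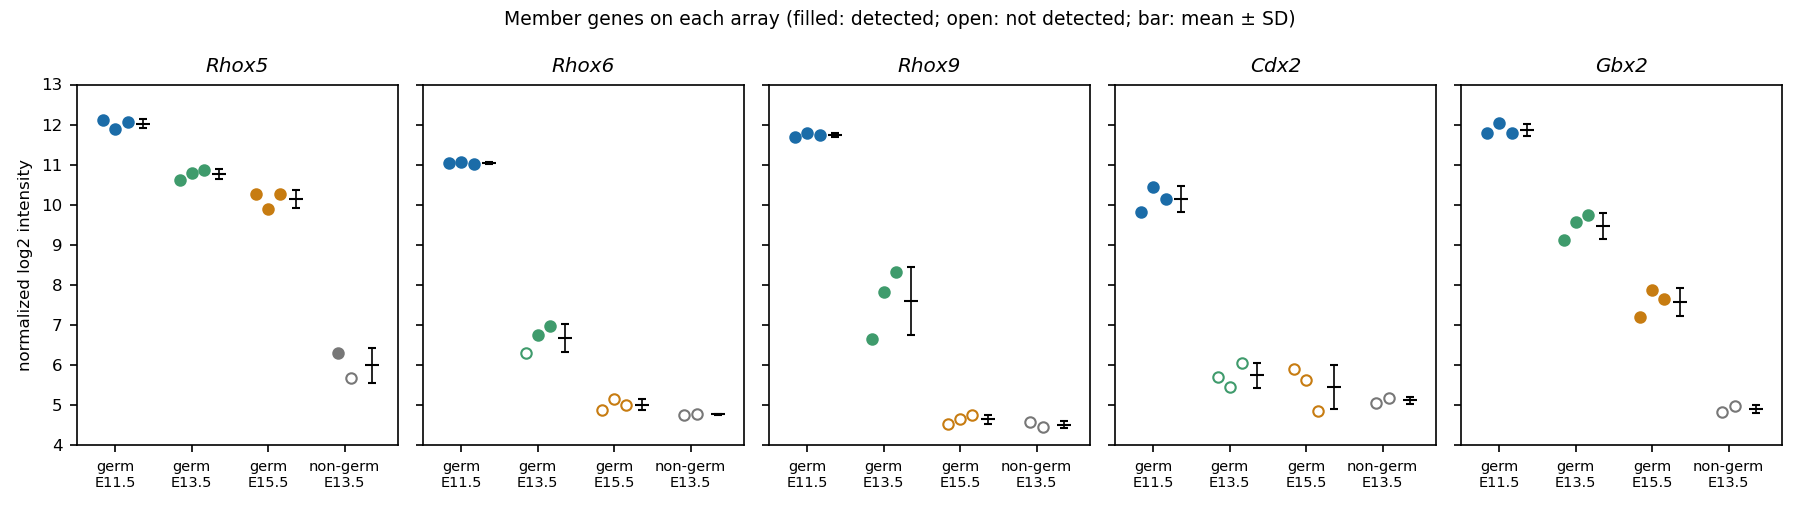
Normalized log2 intensity (vertical axis) of Rhox5, Rhox6, Rhox9, Cdx2 and Gbx2 on each array, by group, with filled points for detected and open points for undetected probes and bars for the mean ± SD (n = 3, non-germ n = 2). Rhox5 and Gbx2 stay detected at E15.5, Rhox6 and Rhox9 are detected at E13.5 but not at E15.5, and Cdx2 is detected at E11.5 only.

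The members differed in how their decline was spread over the intervals. At E13.5 against E11.5 the log2 difference was -4.38 for Rhox6, -4.15 for Rhox9, -2.40 for Gbx2 and -1.26 for Rhox5. Where a group had no detected array, the fold change is a lower bound against the lowest value that counted as detected on each of its arrays. On that basis Cdx2 was at least 15.7-fold lower at E13.5 than at E11.5. For Rhox5 and Gbx2, the members detected on every germ cell array, the first interval held 67.2% and 55.8% of the whole log2 decline. For the other members the levels at E15.5 are bounds, so no share is given. At E15.5, Rhox9 was at least 54.1-fold, Rhox6 at least 33.5-fold and Cdx2 at least 17.8-fold lower than at E11.5, Gbx2 was 19.8-fold lower and Rhox5 3.68-fold lower. Without E15.5 replicate 2 the bounds were 51.1-fold for Rhox9, 31.6-fold for Rhox6 and 16.7-fold for Cdx2, and the folds were 22.5 for Gbx2 and 3.39 for Rhox5. These folds and bounds hold for background-corrected values. Without background correction the log2 differences at E13.5 against E11.5 were -3.03 for Rhox9, -2.77 for Rhox6, -2.22 for Cdx2, -2.06 for Gbx2 and -1.16 for Rhox5, with Rhox9 and not Rhox6 the lowest. At E15.5 against E11.5 they were -4.05 for Rhox9, -3.21 for Rhox6, -3.20 for Gbx2, -2.31 for Cdx2 and -1.68 for Rhox5, which for Rhox9, Rhox6 and Cdx2 is less than the bounds above. Of all genes, 116 (1.00%) had a difference of -2 or below at E13.5 against E11.5, and 4 of the 5 members lie among them, which is what they were chosen for.

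**Figure D2:**
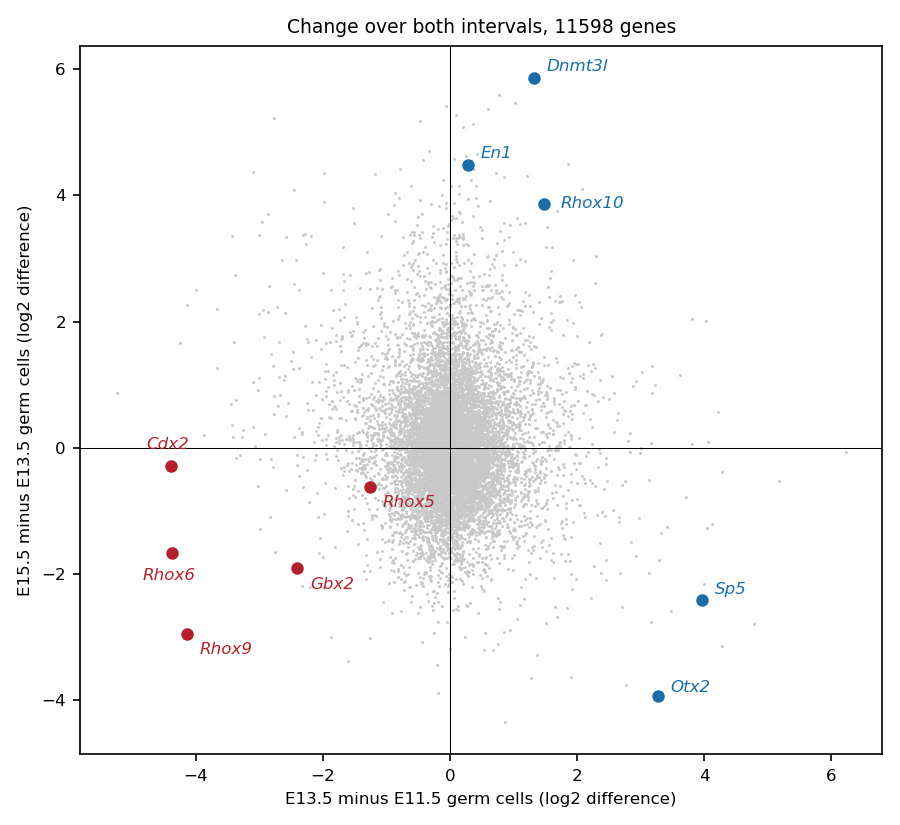
Log2 difference between E13.5 and E11.5 germ cells (horizontal axis) and between E15.5 and E13.5 germ cells (vertical axis) for 11598 genes (grey), with the members in red and Rhox10, Otx2, En1, Dnmt3l and Sp5 in blue. The 5 members lie at the lower left, with Cdx2 undetected in both groups of the vertical axis, so that its height is not a measured difference, while Rhox10 lies at 1.49 and 3.87 and Otx2 and Sp5 are higher at E13.5 than at E11.5 and lower again at E15.5.

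Germ cells were compared with non-germ cells of the same gonads at E13.5 to ask whether what remained of these RNAs lay in the germ line. Rhox5, Gbx2, Rhox9 and Rhox6 were higher in germ cells. Rhox5 was higher by 4.77 ± 0.21 on the log2 scale (standard error of the fit), which is 27.4-fold, with an adjusted p of 1.0e-07 in limma's test. Gbx2 was at least 12.6-fold higher (log2 difference 4.57 ± 0.24, limma adjusted p = 3.05e-07), Rhox9 at least 3.41-fold (3.09 ± 0.37, adjusted p = 5.83e-05) and Rhox6 at least 1.80-fold (1.91 ± 0.20, adjusted p = 2.65e-05). Cdx2 was undetected in both and did not pass (limma adjusted p = 0.114). So 4 of 5 members were called higher, where 30.8% of all genes tested were called higher, 26.2% lower and 57% in either direction at an adjusted p below 0.05. These shares are no like background, because the members passed the detection filter through germ cell arrays. The genes tested include some detected in non-germ cells only. The E13.5 germ cell arrays of this test also entered the choice of the members, and a bulk sample cannot tell fewer expressing cells from less RNA per cell. Without background correction the differences were smaller, 2.70 for Rhox5, 1.95 for Gbx2, 1.16 for Rhox9 and 0.55 for Rhox6, and each call stood, so the folds and bounds given hold for background-corrected values. Under cyclic loess scaling 40.5% of all called genes were higher, against 54.0% under quantile scaling.

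E15.5 was set against E13.5 germ cells to see whether the decline went on. The germ cell arrays of both stages entered the choice of the members, so these differences are a description with no test. Rhox9 was at least 3.05-fold lower at E15.5 than at E13.5 and Rhox6 at least 1.61-fold lower. Gbx2 was 3.75-fold lower (log2 difference -1.91) and Rhox5 was 1.53-fold lower (-0.62). For these 4 genes the E15.5 arrays lay below all E13.5 arrays. How many of all genes separate in this way was not counted, so the separation is not shown to be particular to the members. Cdx2 was undetected at both stages. Without E15.5 replicate 2 the bounds were 2.83-fold for Rhox9 and 1.48-fold for Rhox6, and the log2 differences were -2.08 for Gbx2 and -0.50 for Rhox5. Without background correction the log2 differences were -1.02 for Rhox9, -0.44 for Rhox6, -1.14 for Gbx2 and -0.52 for Rhox5. Over all genes tested, 21.2% were called higher, 21.4% lower and 42.5% in either direction in this comparison, and under cyclic loess 60.8% of all called genes were higher, against 49.7% under quantile scaling.

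None of the other measured genes of the Rhox cluster was called lower between stages. Of 31 further Rhox genes listed, 6 had a named probe and 3, Rhox1, Rhox10 and Rhox13, passed the detection filter. Rhox10, which supports the establishment of spermatogonial stem cells in the mouse, rose. It read 4.97, 4.60 and 4.68 on E11.5 arrays, 6.79, 6.25 and 5.67 on E13.5 arrays, 10.28, 9.80 and 10.23 on E15.5 arrays, and 4.56 and 4.59 in non-germ cells. No array detected it at E11.5 or in non-germ cells, 2 of 3 did at E13.5 and all 3 did at E15.5. It was 14.6-fold higher at E15.5 than at E13.5 (log2 difference 3.87 ± 0.26, limma adjusted p = 3.33e-06) and at least 15.8-fold higher than at E11.5 (adjusted p = 2.79e-07; at least 18.0-fold without E15.5 replicate 2). At E13.5 it was at least 1.09-fold higher than at E11.5 (limma adjusted p = 0.00273) and at least 1.33-fold above the non-germ level (adjusted p = 0.000656). Without E15.5 replicate 2 its difference between E15.5 and E13.5 was 4.05, so the rise was as large without that array.

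Rhox1 and Rhox13 showed low levels in germ cells. Rhox1 had 2 kept probes, of which the brighter averaged 6.54 ± 0.32 on E11.5 arrays, 6.48 ± 0.47 on E13.5 arrays and 6.32 ± 0.39 on E15.5 arrays (SD, n = 3 each), with all 9 germ cell arrays detected, and the dimmer 6.39, 6.25 and 6.25 at these stages. None of its differences between stages passed (limma adjusted p = 0.539 to 0.920), and at E13.5 it was at least 1.58-fold higher in germ cells than in non-germ cells, which did not detect it (limma adjusted p = 0.00233). Rhox13 was near the detection limit, with 1 array detected at E11.5, 0 on E13.5 arrays, 2 on E15.5 arrays and 0 in non-germ cells. It was at least 1.18-fold higher at E15.5 than at E13.5 (limma adjusted p = 0.0319). Its E15.5 level was above that at E11.5 by 0.63 ± 0.23 on the log2 scale (limma adjusted p = 0.0413, with groups that overlap). These calls ended under 7 and 13 of 19 alternatives. Without E15.5 replicate 2, Rhox13 was at least 1.29-fold higher than at E13.5 and differed from E11.5 by 0.75, both still called. The probes of Rhox8, Rhox11 and Rhox12 were detected on no array. The Cdx2 relatives Cdx1 and Cdx4 and the Gbx2 relative Gbx1 had probes that did not pass the filter, so for both families the member was the only gene measured.

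**Figure D3:**
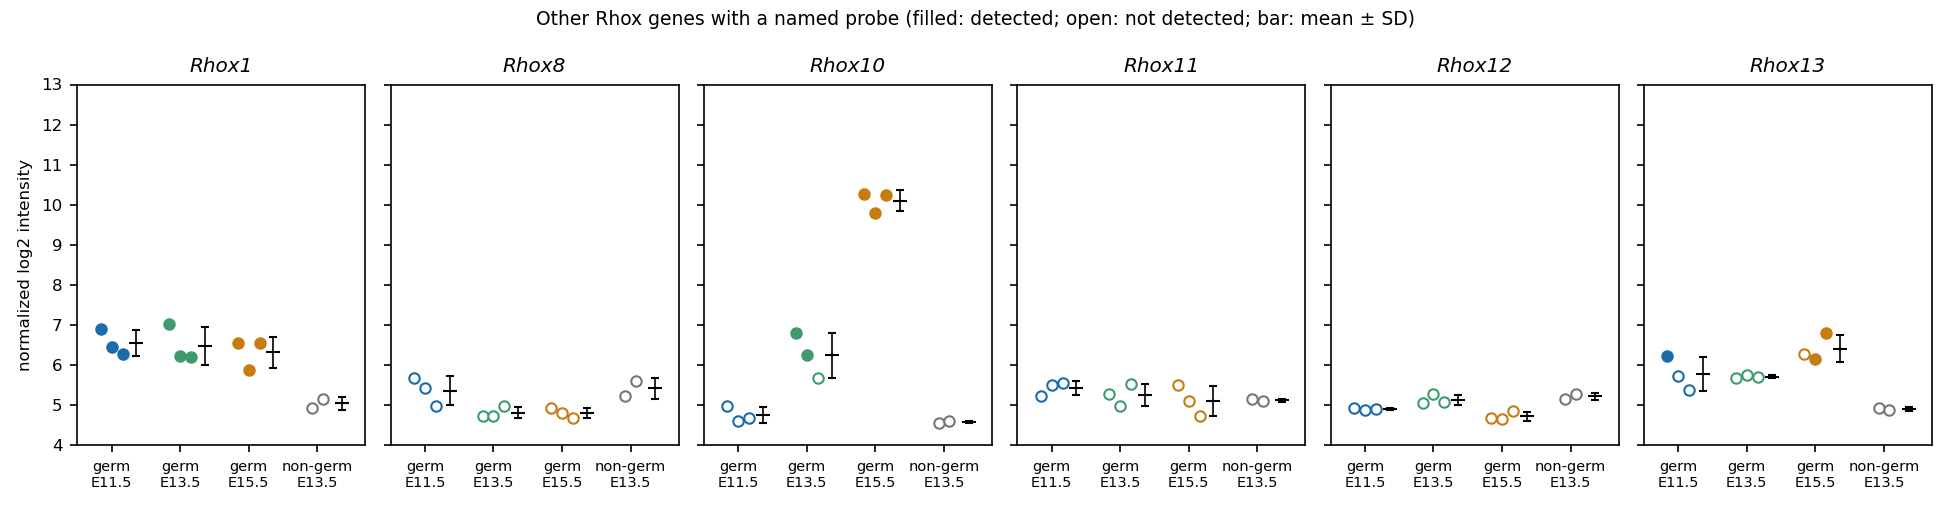
Normalized log2 intensity (vertical axis) of 6 further Rhox genes on each array, by group, with filled points for detected and open points for undetected probes and bars for the mean ± SD (n = 3, non-germ n = 2). Rhox10 lies at 9.80 to 10.28 on E15.5 arrays and at 4.60 to 4.97 on E11.5 arrays, Rhox1 is level across germ cells, and Rhox8, Rhox11 and Rhox12 are undetected on all 11 arrays.

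The chromosome around the Rhox cluster was also examined, since 3 members lie within it. Of 20 measured genes next to the cluster, 10 on each side in the RefSeq gene order, 3 were called higher and 4 lower at E13.5 against E11.5, with a median log2 difference of -0.21. Over all genes tested, 10.8% were called higher, 7.94% lower and 18.8% in either direction in that comparison, with a median of 0.01. At E15.5 against E11.5, 5 neighbours were higher and 9 lower (median -0.27), and without E15.5 replicate 2, 5 were higher and 10 lower (median -0.38), where 25.7% of all genes were higher, 24.2% lower and 49.9% either (median 0.03) on all arrays. The neighbours Slc25a5, an ADP/ATP carrier of mitochondria, and Slc25a43 of the same carrier family were lower at E13.5 than at E11.5, with log2 differences of -0.87 and -1.10 (limma adjusted p = 0.00169 and 0.00382), while the cohesin subunit gene Stag2 was higher by 1.68 (adjusted p = 8.64e-05). The lowest difference among the 20 neighbours was -1.10, that of Slc25a43, beside -4.38 for Rhox6, -4.15 for Rhox9 and -1.26 for Rhox5, which were chosen for theirs. On E13.5 arrays Slc25a43 read 5.51, 5.28 and 5.28, below the lowest detected values there (6.34, 6.06 and 6.09), so -1.10 is not a measured size. The neighbours Gria3, Dcaf12l2 and Xiap were below detection on every E11.5 array, so a fall from E11.5 could not be seen for them. Over the whole X chromosome, 445 genes had a median of -0.04 at E13.5 against E11.5, against 0.01 for 11117 autosomal genes. Xist, the RNA that coats an inactive X chromosome, averaged 7.06 on E11.5 arrays, 6.14 on E13.5 arrays, 5.91 on E15.5 arrays and 4.85 in non-germ cells. It was lower at E13.5 than at E11.5 (log2 difference -0.92 ± 0.27, limma adjusted p = 0.0393), and its part in the Rhox values was not tested. This Xist probe was detected on 3 E11.5 arrays, 1 E13.5 array, 2 E15.5 arrays and no non-germ array. The other Xist probes were detected on at most 1 array of a group and did not pass the filter. The Xist call was not run over the alternatives.

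The genes whose pattern over the 11 arrays was most like that of each member were ranked by Pearson's r among 11597 other genes, as a description over arrays that share groups and scaling. Rhox5 ranked with Tfap2c (r = 0.996), an AP-2 transcription factor needed by primordial germ cells, followed by Zfp345 (0.992) and Nubp1 (0.991). Tfap2c averaged 12.81 on E11.5 arrays, 11.53 on E13.5 arrays, 11.31 on E15.5 arrays and 7.24 in non-germ cells. Rhox6 and Rhox9 ranked with each other (r = 0.987), with Foxh1, a partner of SMAD proteins in Nodal signalling (0.985 to Rhox6, 0.996 to Rhox9), and with 1700019D03Rik (0.985 to each). Foxh1 averaged 8.64 on E11.5 arrays, 6.59 on E13.5 arrays, 5.15 on E15.5 arrays and 4.93 in non-germ cells. Cdx2 ranked with Psors1c2 (r = 0.990), the defensin gene Defb42 (0.983) and the phosphatase gene Ppm1j (0.981). Gbx2 ranked with Rnaseh2b (r = 0.991), a subunit of ribonuclease H2, the T-box gene Tbx4 (0.989) and Cox17 (0.987), a copper chaperone of mitochondria. Rhox5 was the member least like the others, with r = 0.642 to Cdx2, 0.708 to Rhox6 and 0.728 to Rhox9 but 0.923 to Gbx2. The members were chosen for a fall over these same arrays, so likeness among them is partly set by that choice. Undetected values also entered r.

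Genes that work with Cdx2 elsewhere in the embryo were then followed, to see what else of its programmes was present. Of 14 listed trophectoderm genes, 9 were measured. At E13.5 against E11.5, 1 was called higher and 2 lower (median -0.08, against 0.01 for all genes), where 10.8% of all genes were called higher and 7.94% lower. At E15.5 against E13.5, 2 were higher and 1 lower (median 0.01, against 0.02), where 21.2% of all genes were higher and 21.4% lower, and without E15.5 replicate 2, 1 was higher and 2 lower. Gata2, a zinc finger factor of trophoblast and blood, fell to 6.81, 6.33 and 6.33 on E13.5 arrays, against 9.52, 10.09 and 9.16 at E11.5 (log2 difference -3.10 ± 0.31, limma adjusted p = 0.000104). It was lower in each germ cell group than in non-germ cells (11.30 and 11.36). The summed interstitial markers were 941.9, 855.7 and 972.3 on E13.5 arrays and 1135, 613.8 and 808.9 on E11.5 arrays. Endothelial markers summed to 1802, 1894 and 1811 at E13.5 and to 3158, 2930 and 2599 at E11.5. Sertoli cell markers summed to 2026, 1979 and 3139 at E13.5 and to 3664, 4142 and 3519 at E11.5. Mesonephric markers went the other way, with 2797, 3789 and 3425 at E13.5 and 1312, 1524 and 1705 at E11.5. The part of such cells in the Gata2 values was not tested. Tfap2c fell by 1.28 on the log2 scale over the same interval (limma adjusted p = 0.00109), and the receptor gene Fgfr2 fell by 1.86 between E13.5 and E15.5 (adjusted p = 0.00152), and by 2.36 without E15.5 replicate 2. Eomes, a T-box factor of trophoblast stem cells, was at least 1.15-fold higher at E13.5 than at E11.5 (adjusted p = 0.0344), a call that 7 of 16 alternatives ended. Tfap2a was at least 1.27-fold higher at E15.5 than at E13.5 (limma adjusted p = 4.79e-05), and at least 1.37-fold without E15.5 replicate 2.

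Of 15 listed genes of posterior growth, a setting in which Cdx factors act in the tail bud, 9 were measured. At E13.5 against E11.5, 1 was higher and 1 lower (median -0.13, against 0.01 for all genes), and at E15.5 against E13.5, 4 were higher and 2 lower (median 0.47, against 0.02), also without E15.5 replicate 2. Of all genes, 10.8% were higher and 7.94% lower in the first of these comparisons and 21.2% and 21.4% in the second. Sp5, a Wnt target, rose and fell. It read 5.11, 4.89 and 4.90 on E11.5 arrays, 9.07, 9.12 and 8.64 on E13.5 arrays, and 6.15, 6.28 and 7.13 on E15.5 arrays, so that its E13.5 arrays stood above all others. It was at least 7.08-fold higher at E13.5 than at E11.5 (limma adjusted p = 1.91e-05) and 5.36-fold lower at E15.5 than at E13.5 (adjusted p = 0.000118). Evx1 was at least 1.41-fold lower at E15.5 than at E13.5 (limma adjusted p = 0.00128), and the Wnt effector Lef1 was lower at E13.5 than at E11.5 (log2 difference -1.19 ± 0.23, adjusted p = 0.00473). Hoxb7 was at least 2.74-fold higher at E15.5 than at E13.5 (limma adjusted p = 9.06e-06) and Hoxd8 was 5.64-fold higher (log2 difference 2.49 ± 0.43, adjusted p = 0.00107). Both Hox genes were higher still in non-germ cells (means 8.34 and 10.42). Without E15.5 replicate 2, Hoxb7 was at least 2.76-fold higher and Evx1 at least 1.30-fold lower at E15.5 than at E13.5. The log2 differences in that setting were 1.87 for Hoxd8 and -2.33 for Sp5, and all of these were still called.

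The LIF and naive pluripotency circuit, to which Gbx2 belongs in embryonic stem cells, had 13 of 15 listed genes measured. At E13.5 against E11.5, 1 was higher and 4 lower (median -0.33, against 0.01 for all genes), and at E15.5 against E13.5, 3 were higher and 6 lower (median -0.56, against 0.02), and without E15.5 replicate 2, 4 were higher and 6 lower. Of all genes, 10.8% were higher and 7.94% lower in the first of these comparisons and 21.2% and 21.4% in the second. Klf2, a Krüppel-like factor, followed the direction of Gbx2 in both intervals. It read 9.52, 9.30 and 9.25 on E11.5 arrays, 7.85, 7.39 and 7.41 on E13.5 arrays, and 5.94, 6.51 and 5.48 on E15.5 arrays, with log2 differences of -1.81 and then -1.58 (limma adjusted p = 0.00117 and 0.00105). Prdm14 and Zfp42 were also lower in each interval, and each was undetected at E15.5. The nuclear receptor Esrrb was lower at E15.5 than at E13.5 (log2 difference -2.53 ± 0.19, limma adjusted p = 6.59e-06), and so was Klf5 (-1.60 ± 0.22, adjusted p = 0.000258). The change of Esrrb between E11.5 and E13.5 did not pass (limma adjusted p = 0.107). Tfcp2l1 was lower and Klf4 higher at E13.5 than at E11.5 (adjusted p = 0.0388 and 0.0409), calls that 8 and 14 of 19 alternatives ended. Socs3, Stat3 and Klf4 rose after E13.5. Socs3, the feedback inhibitor of STAT3, was at least 3.84-fold higher (limma adjusted p = 0.000442), Stat3 itself was 3.45-fold higher (adjusted p = 0.000121) and Klf4 2.96-fold higher (adjusted p = 0.000493). Socs3 averaged 9.67 in non-germ cells, and without E15.5 replicate 2 it was at least 2.57-fold higher at E15.5 than at E13.5, still called. In the same setting the difference at E15.5 against E13.5 was -2.38 for Esrrb, -1.39 for Klf5, 1.79 for Stat3 and 1.35 for Klf4, and the undetected Klf2, Prdm14 and Zfp42 were at least 2.74-fold, 1.68-fold and 1.63-fold lower, all still called.

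The partners of Gbx2 at the boundary between midbrain and hindbrain gave 5 measured genes of 10 listed. At E13.5 against E11.5, 1 was higher and 1 lower (median 0.28, against 0.01 for all genes), where 10.8% of all genes were higher and 7.94% lower. At E15.5 against E13.5, 1 was higher and 1 lower (median -0.26, against 0.02), where 21.2% of all genes were higher and 21.4% lower, and the counts were equal without E15.5 replicate 2. Otx2, the forebrain and midbrain factor that opposes Gbx2 at that boundary, peaked while Gbx2 declined. It read 5.60, 6.33 and 6.66 on E11.5 arrays, 9.26, 9.69 and 9.45 on E13.5 arrays, and 5.41, 5.32 and 5.85 on E15.5 arrays. It was 9.65-fold higher at E13.5 than at E11.5 (limma adjusted p = 2.39e-05) and at least 11.2-fold lower at E15.5 than at E13.5 (adjusted p = 3.08e-06). The engrailed genes En1 and En2 moved at different times. En1 read 9.91, 9.58 and 10.01 on E15.5 arrays and was undetected on all other arrays, at least 12.7-fold higher at E15.5 than at E13.5 (limma adjusted p = 2.42e-06). Without E15.5 replicate 2 the differences at E15.5 against E13.5 were 4.63 for En1 and -3.86 for Otx2, both still called. En2 was detected on all 3 E11.5 arrays and on none at E13.5, where it was at least 2.29-fold lower (limma adjusted p = 0.000817). Lmx1b was lower at E15.5 than at E11.5 (log2 difference -0.70 ± 0.25, adjusted p = 0.0371), a call that 8 of 19 alternatives ended, the one without E15.5 replicate 2 among them (adjusted p = 0.0946).

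Genes with reported control over Rhox genes, mostly of DNA methylation, had 12 of 14 listed members measured. At E13.5 against E11.5, 4 were higher and 1 lower (median 0.32, against 0.01 for all genes), and at E15.5 against E13.5, 4 were higher and 4 lower (median -0.14, against 0.02), also without E15.5 replicate 2. Of all genes, 10.8% were higher and 7.94% lower in the first of these comparisons and 21.2% and 21.4% in the second. Dnmt3b, a de novo DNA methyltransferase, was higher at E13.5 than at E11.5 by 1.58 ± 0.13 (limma adjusted p = 3.37e-05) and higher again at E15.5 (by 0.94, adjusted p = 0.000286). Its cofactor Dnmt3l read 4.91, 4.59 and 4.77 on E11.5 arrays, 7.15, 5.91 and 5.19 on E13.5 arrays, and 11.93, 11.71 and 12.21 on E15.5 arrays. Dnmt3l was at least 57.0-fold higher at E15.5 than at E11.5 (limma adjusted p = 4.65e-07), whereas its call at E13.5 against E11.5 (adjusted p = 0.0369) ended under 12 of 19 alternatives. Dnmt3a was 5.39-fold higher at E15.5 than at E13.5 (limma adjusted p = 9.64e-05). Non-germ cells averaged 11.03 for Dnmt3a and 11.94 for Dnmt3b. On the demethylation side, Tet1, an oxidase of methylcytosine, was 8.70-fold lower at E15.5 than at E13.5 (limma adjusted p = 2.34e-05), and the glycosylase gene Tdg was at least 2.34-fold lower at E15.5 than at E11.5 (adjusted p = 3.30e-05). Without E15.5 replicate 2 the differences at E15.5 against E13.5 were 6.01 for Dnmt3l, 2.19 for Dnmt3a, 0.98 for Dnmt3b, -2.78 for Tet1 and -1.44 for Hells, and against E11.5 Dnmt3l was at least 63.5-fold higher and Tdg at least 2.16-fold lower, all still called. Hells, a chromatin remodeller required for DNA methylation, fell by 1.36 on the log2 scale between E13.5 and E15.5 (limma adjusted p = 0.000136). Gabpa, whose product acts on a Rhox5 promoter, was lower at E13.5 than at E11.5 (log2 difference -1.08 ± 0.27, limma adjusted p = 0.019), a call that 4 of 19 alternatives ended. Of 11 listed homeobox genes of germ cells and placenta outside the Rhox cluster, only Crxos was measured, and its difference at E15.5 against E13.5 (log2 1.29 ± 0.47, limma adjusted p = 0.0446) lost its call under 11 of 19 alternatives, the one without E15.5 replicate 2 (1.49, adjusted p = 0.0326) not among them.

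**Figure D4:**
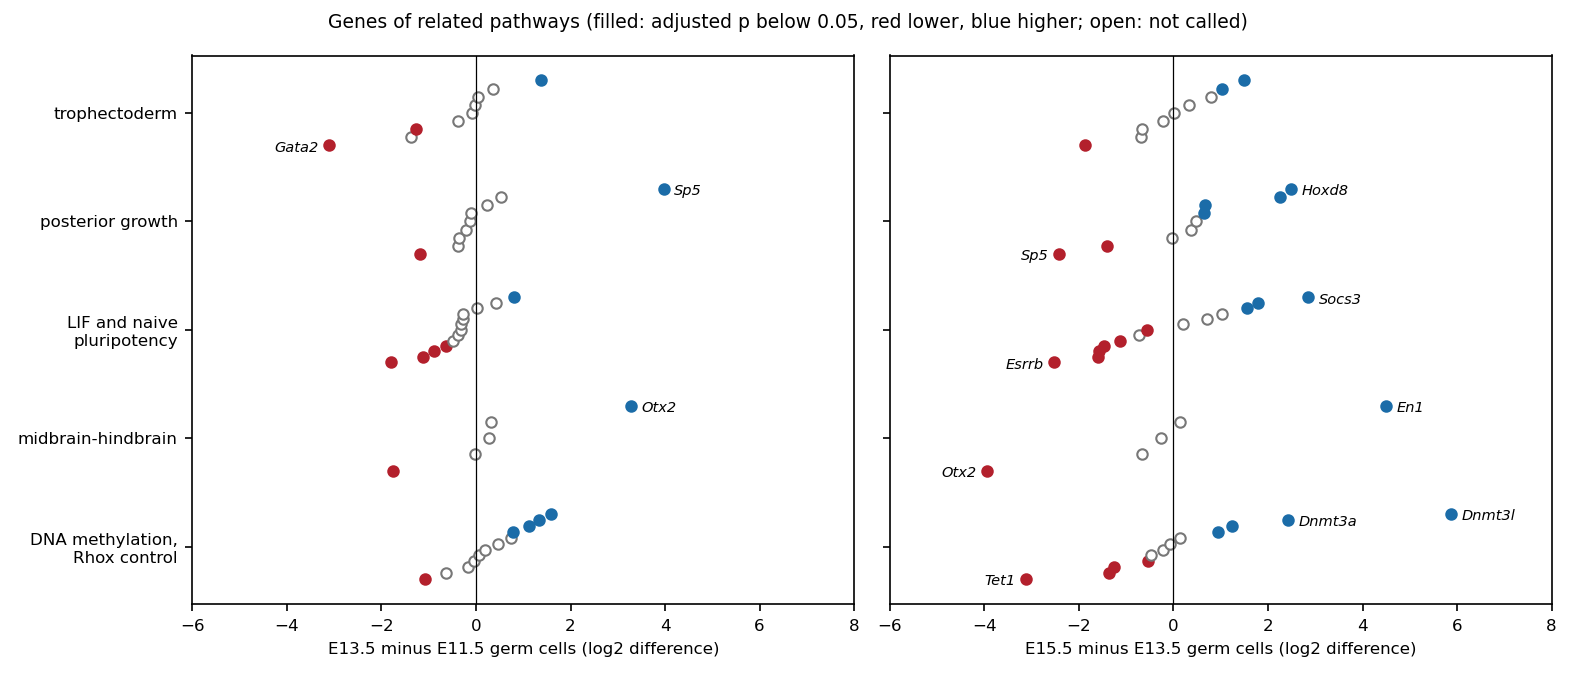
Log2 differences at E13.5 minus E11.5 (left) and E15.5 minus E13.5 (right) for measured genes of 5 lists, 1 point per gene, spread within a row by size, with filled points for genes called in limma at an adjusted p below 0.05. Otx2 and Sp5 are to the right in the left panel and to the left in the right panel, and Dnmt3l at 5.87 and En1 at 4.49 are the farthest to the right in the right panel. For genes undetected in a group, such as En1 at E13.5, the plotted place is not a measured size.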

How the data were processed

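Each probe on each array has, per the file headers, a linear signal intensity and a detection p-value in the deposited non-normalized table. The deposited series table also holds linear intensity values, not centred, which for every array equal a constant plus a multiple of its signals. How it was rescaled is not stated, and no direction is in doubt because no value is a ratio. The medians of its columns were 315, 326 and 326 (E11.5), 326, 331 and 329 (E13.5), 342, 317 and 328 (E15.5), 322 and 319 (non-germ). No aligner or genome build applies to these files.

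From the signals, limma 3.58.1 in R 4.3.3 corrected background from the detection p-values (neqc, offset 16), scaled by quantiles and took log2. Probes detected (p below 0.01) on at least 2 arrays were kept (21943). Of all probes, 34885 had 1 gene symbol, 18 several and 10378 none, and the brightest kept probe stood for a gene. A linear model with 4 group means (7 residual degrees of freedom) gave two-sided tests, Benjamini-Hochberg adjusted over all 11598 genes. The linear model alone was run on simulated data, drawn on the normalized scale. That run did not examine background correction, the detection filter or an outlying array. Named genes are the members, the measured Rhox, Cdx and Gbx relatives, and up to 2 largest called rises and falls per list and stage comparison, with a few others counted in a list added after their values were seen. The members and lists were chosen with earlier results of these data known. The replicates are biological per the labels, and their number limits the precision.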

Additional observations from a re-analysis of the deposited data

How the results depend on the processing

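Over 19 alternatives, Rhox5, Rhox6, Rhox9 and Gbx2 kept direction and call in E13.5 germ against non-germ cells, and they kept their direction at E15.5 against E13.5. Leaving out 1 array at a time, the genes called ranged over 4924 to 6974 (germ against non-germ), 3913 to 5058 (E15.5 against E13.5), 1450 to 2838 (E13.5 against E11.5, 2178 with all arrays, 1450 without E13.5 replicate 1) and 5121 to 5884 (E15.5 against E11.5). Some differences with no call changed sign, those of Cdx2 between undetected groups, and the cause was not tested: Cdx2 at E15.5 against E13.5 to 0.019 without E15.5 replicate 3, Rhox1 in the same comparison to 0.12 with array weights, 0.11 without E13.5 replicate 1 and 0.06 without E15.5 replicate 2, Rhox1 at E13.5 against E11.5 to 0.12, 0.06 and 0.09 without E11.5 replicate 1, E13.5 replicate 2 and E13.5 replicate 3, Rhox13 in that comparison to 0.0047 in the series table and 0.16 without E11.5 replicate 1, and Rhox1 at E15.5 against E11.5 to 0.0023 without E15.5 replicate 2. The lowest values on leaving out 1 array were -0.52 (Cdx2) and -0.30 (Rhox1) at E15.5 against E13.5, -0.33 (Rhox1) and -0.27 (Rhox13) at E13.5 against E11.5, and -0.35 (Rhox1) at E15.5 against E11.5. Rhox13 was called higher in E13.5 germ than in non-germ cells (limma adjusted p = 0.0202), though it was undetected in both. That call was lost in 3 alternatives. Gata2, called higher at E15.5 than at E13.5 (adjusted p = 0.0217), lost that call in 5 of 19 alternatives (adjusted p up to 0.0922). Cyclic loess moved the median of all genes by -0.233 (germ against non-germ), 0.12 (between E13.5 and E15.5) and 0.105 (between E11.5 and E15.5), and relative to these shifts the members kept their directions. With the series table the Rhox6 difference between germ and non-germ cells was 0.43, still called. Replicate numbers are shared between groups but did not pair the arrays: 1 of 15 same-number pairs correlated above 0.1 (r from -0.108 to 0.131). With the replicate block, 6336, 4755, 1938 and 5641 genes were called, in the order of comparisons above, against 6610, 4934, 2178 and 5783. A slide block was not run because the files give no slide. Values below detection are bounds, which limits Cdx2 after E11.5 and Rhox6 and Rhox9 at E15.5.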

Other observations

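Among the genes beside the Rhox cluster, Smarca1, a chromatin remodelling ATPase of the ISWI family, was higher at E15.5 than at E13.5 by 3.64 on the log2 scale (limma adjusted p = 1.16e-05), and by 3.56 without E15.5 replicate 2. Septin6, a cytoskeletal septin, read 7.66, 8.55 and 8.64 on E15.5 arrays, against 4.70, 4.99 and 5.05 on E13.5 arrays, and was called higher (limma adjusted p = 0.000135, and 0.000281 without E15.5 replicate 2). Both genes were lower in E13.5 germ cells than in non-germ cells (adjusted p = 3.45e-06 and 3.00e-05), where they averaged 13.11 and 9.27. Ndufa1, a subunit of respiratory complex I, and Rpl39, a ribosomal protein, were lower at E15.5 than at E13.5, with log2 differences of -1.56 and -0.94 (limma adjusted p = 0.000686 and 0.000409), and of -1.70 and -0.98 without E15.5 replicate 2.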
